A study of Mus musculus with 6 samples.

Results

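Lsd1 occupancy was examined at 35 nuclear receptor genes, a family from which the Ppar genes were left out, among 26180 genes with a curated RefSeq transcription start site (TSS) on mm10. The genes were taken by name with a rule that uses no measured value, and all 35 had a TSS. Lsd1 peaks were tied to them in 2 ways: the centre of the peak lay within 2000 bp of any TSS of the gene, which is called a promoter peak here, or it lay in the gene body or within 10 kb either side, which is called the gene window.

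C2C12 cells, a mouse myoblast line, were studied on day 1 of differentiation in 3 conditions, each with 1 Lsd1 ChIP-seq library and 1 input library. Wild-type (WT) cells were kept in myogenic medium with 2% horse serum. WT cells and LSD1(OE) cells were kept in adipogenic medium with 10% FCS, 5 µM dexamethasone, 1 nM T3, 1 µM rosiglitazone, 850 nM insulin, 0.5 mM isobutylmethylxanthine and 125 nM indomethacin. LSD1(OE) cells are a stable line with a lentiviral, Flag-tagged LSD1 under a doxycycline-inducible promoter, so the line, the inducer and the amount of LSD1 cannot be told apart. No condition had a replicate. Every difference below is therefore a difference between single libraries, without a test, and the intervals cover counting error only. The files hold peaks and no expression values, so the cell type could not be checked by its markers.

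Nuclear receptors are transcription factors that bind DNA through zinc fingers and change activity when a small lipid-soluble ligand, such as a steroid, thyroid hormone or a retinoid, enters their ligand pocket. Many pair with an RXR receptor on repeats of the core site AGGTCA, while the steroid receptors bind palindromes. Lsd1 is a histone demethylase that acts within corepressor complexes and has also been described as a partner of steroid receptors. Dexamethasone is a ligand of the glucocorticoid receptor Nr3c1, and T3 is the ligand of the thyroid hormone receptors Thra and Thrb.

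The sequences below cover 300 bp around the summit, the base with most tags, of promoter peaks of 5 receptor genes. They were chosen because each holds a motif that was looked for: AGGTCA, whose reverse complement is TGACCT, or the E-box CAGCTG, the site of myogenic factors such as MyoD. They are given 5′ to 3′ on the strand of the gene, from RefSeq's GRCm38 (mm10) assembly, with each motif in capitals. Rara is shown at chr11:98938216-98938515 on the plus strand, at the summit of its strongest promoter peak in the myogenic library. Rarg is shown at chr15:102257658-102257957 on the minus strand, Rxra at chr2:27676493-27676792 on the plus strand and Nr1d2 at chr14:18238123-18238422 on the minus strand, all at the summit of the myogenic library. Nr4a3 is shown at chr4:48044474-48044773 on the plus strand, at the summit of the LSD1(OE) library, where it holds 2 E-boxes and 1 core site.
Rara: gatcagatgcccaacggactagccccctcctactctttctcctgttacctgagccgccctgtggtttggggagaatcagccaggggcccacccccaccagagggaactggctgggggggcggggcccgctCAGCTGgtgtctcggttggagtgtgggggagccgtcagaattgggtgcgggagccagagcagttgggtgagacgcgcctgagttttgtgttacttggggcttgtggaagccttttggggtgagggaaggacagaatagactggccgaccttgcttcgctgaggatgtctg
Rarg: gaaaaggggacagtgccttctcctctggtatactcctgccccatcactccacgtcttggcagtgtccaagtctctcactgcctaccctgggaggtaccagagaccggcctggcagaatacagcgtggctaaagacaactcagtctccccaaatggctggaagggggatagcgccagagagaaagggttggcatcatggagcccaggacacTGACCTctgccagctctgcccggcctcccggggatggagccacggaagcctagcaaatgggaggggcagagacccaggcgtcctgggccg
Rxra: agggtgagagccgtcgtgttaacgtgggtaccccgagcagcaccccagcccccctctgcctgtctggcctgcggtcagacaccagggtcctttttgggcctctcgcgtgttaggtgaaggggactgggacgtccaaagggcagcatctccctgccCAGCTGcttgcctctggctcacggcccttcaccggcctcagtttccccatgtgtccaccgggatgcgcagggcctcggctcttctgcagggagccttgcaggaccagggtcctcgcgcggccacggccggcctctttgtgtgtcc
Nr1d2: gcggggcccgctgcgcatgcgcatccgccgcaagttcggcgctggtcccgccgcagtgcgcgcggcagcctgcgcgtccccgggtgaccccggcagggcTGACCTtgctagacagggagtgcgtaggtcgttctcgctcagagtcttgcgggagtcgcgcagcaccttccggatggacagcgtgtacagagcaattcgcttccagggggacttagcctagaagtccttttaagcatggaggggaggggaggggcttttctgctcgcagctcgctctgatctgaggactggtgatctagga
Nr4a3: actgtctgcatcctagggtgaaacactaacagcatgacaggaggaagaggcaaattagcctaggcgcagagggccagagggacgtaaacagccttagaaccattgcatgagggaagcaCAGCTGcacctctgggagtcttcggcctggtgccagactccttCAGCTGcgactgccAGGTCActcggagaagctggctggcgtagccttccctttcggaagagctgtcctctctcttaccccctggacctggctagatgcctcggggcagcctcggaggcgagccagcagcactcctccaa

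Promoter peaks without either motif could differ widely in CpG content, as the next pair of sequences shows with every CG in capitals. Nr2f2, at chr7:70361202-70361501 on the minus strand, holds 43 CpGs in 300 bp, and Vdr, at chr15:97907374-97907673 on the minus strand, holds 4. Both are shown at the summit of the myogenic library.
Nr2f2: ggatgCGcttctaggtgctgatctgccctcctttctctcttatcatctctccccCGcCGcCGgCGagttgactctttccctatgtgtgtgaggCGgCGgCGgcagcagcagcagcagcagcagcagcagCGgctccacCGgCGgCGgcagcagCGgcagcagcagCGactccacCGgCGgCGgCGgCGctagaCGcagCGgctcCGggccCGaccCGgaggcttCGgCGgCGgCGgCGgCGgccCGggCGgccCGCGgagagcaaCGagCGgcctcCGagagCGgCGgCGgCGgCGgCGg
Vdr: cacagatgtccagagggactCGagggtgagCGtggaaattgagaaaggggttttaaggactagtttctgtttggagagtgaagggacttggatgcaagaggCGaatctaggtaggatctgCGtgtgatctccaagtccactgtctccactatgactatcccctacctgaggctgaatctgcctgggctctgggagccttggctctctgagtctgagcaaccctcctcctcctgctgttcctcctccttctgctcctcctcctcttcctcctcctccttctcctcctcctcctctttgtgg

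Lsd1 occupied the promoters of 24 of the 35 receptor genes in myogenic medium, against 46.8% of all genes. In WT cells in adipogenic medium this number was 17 of 35, against 27.0% of all genes, and in LSD1(OE) cells it was 19 of 35, against 37.3%. In each library the receptor genes thus had promoter peaks more often than genes at large, with shares of 68.6, 48.6 and 54.3%. A peak near any TSS counts, so a gene with more TSSs has more promoter windows. The shares are adjusted neither for this nor for CpG content. Among the CpG-rich genes described below, 76.9% of receptor genes had a promoter peak in at least 1 library, against 83.0% of all genes. The gene windows held a peak in 30 receptor genes in myogenic medium (all genes 62.5%), in 23 in adipogenic medium (41.2%) and in 27 in LSD1(OE) cells (53.9%). Receptor genes are long, with a median length of 49.3 kb against 13.5 kb for all genes, so that their windows can hold more peaks. Per 100 kb of window they held 2.53, 1.19 and 2.31 peaks in the 3 libraries, against 2.99, 1.35 and 2.27 for all genes, lower in both WT libraries and about level in LSD1(OE) cells.

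**Figure D1:**
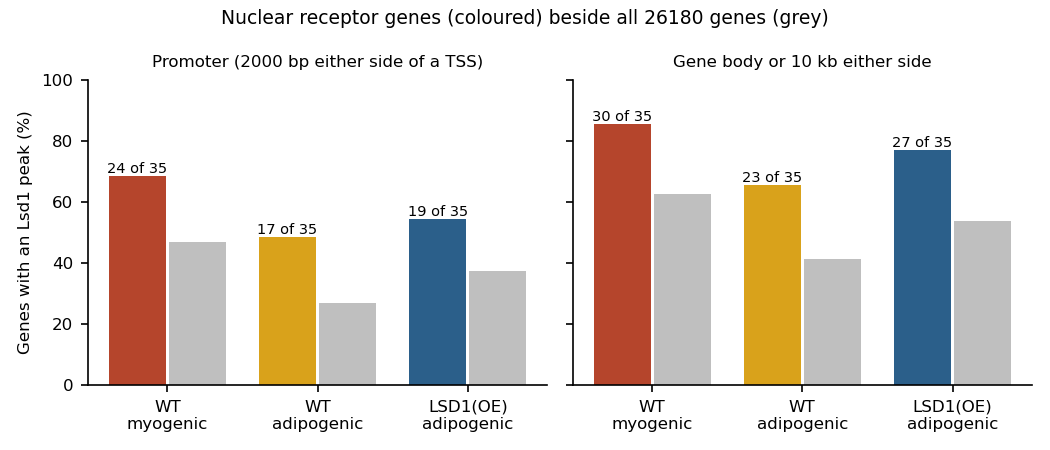
Percentage of genes with an Lsd1 peak (vertical axis) in each library, at promoters (left) and in gene windows (right). Coloured bars stand for the 35 receptor genes, with their number on top, and grey bars for all 26180 genes. Receptor genes were above all genes in each of the 6 pairs of bars, and in both panels WT cells in adipogenic medium had the lowest share.

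These shares changed with the length of the peak lists. With the same number of peaks taken from each library, promoter peaks were found at 21, 17 and 15 receptor genes, against 36.4, 27.0 and 29.1% of all genes, so that LSD1(OE) cells fell below WT cells in adipogenic medium. Gene windows then held a peak in 24, 23 and 24 receptor genes, against 49.1, 41.2 and 42.5%.

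Promoters of 15 receptor genes carried a peak in all 3 libraries, a pattern seen in 23.5% of all genes. They were the retinoic acid receptors Rara and Rarg, the vitamin D receptor Vdr, the Rev-erb genes Nr1d1 and Nr1d2, the testicular receptors Nr2c1 and Nr2c2, the COUP-TF genes Nr2f1 and Nr2f6, the steroid receptors Nr3c1 and Esr1, Esrra, and Nr4a1, Nr4a2 and Nr4a3. Of the 15, 10 kept a peak in all libraries under each of 10 other settings of the rule: Nr1d2, Nr2c1, Nr2c2, Nr2f6, Nr3c1, Nr4a1, Nr4a2, Nr4a3, Rara and Rarg. The promoters of Nr6a1, Rxra and Rxrb had a peak in myogenic medium and in LSD1(OE) cells but not in WT cells in adipogenic medium, which makes 3 of 35 against 10.8% of all genes. In myogenic medium only, 4 had a peak, namely Nr1h2, Nr1h4, Nr2f2 and Nr3c2, against 9.98% of all genes. Rorb and Thra had one in both WT libraries but not in LSD1(OE) cells, against 2.53% of all genes. Nr1h3, the LXRα gene, was the 1 receptor gene called in LSD1(OE) cells alone, against 2.59%. The other 10 had no promoter peak in any library, against 49.7% of all genes. Of the 24 promoters with a peak in myogenic medium, 17 had one in WT adipogenic cells, against 55.7% of all genes with a myogenic promoter peak. In LSD1(OE) cells 18 of the 24 had one, about the same share as the 73.3% of all such genes.

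**Figure D2:**
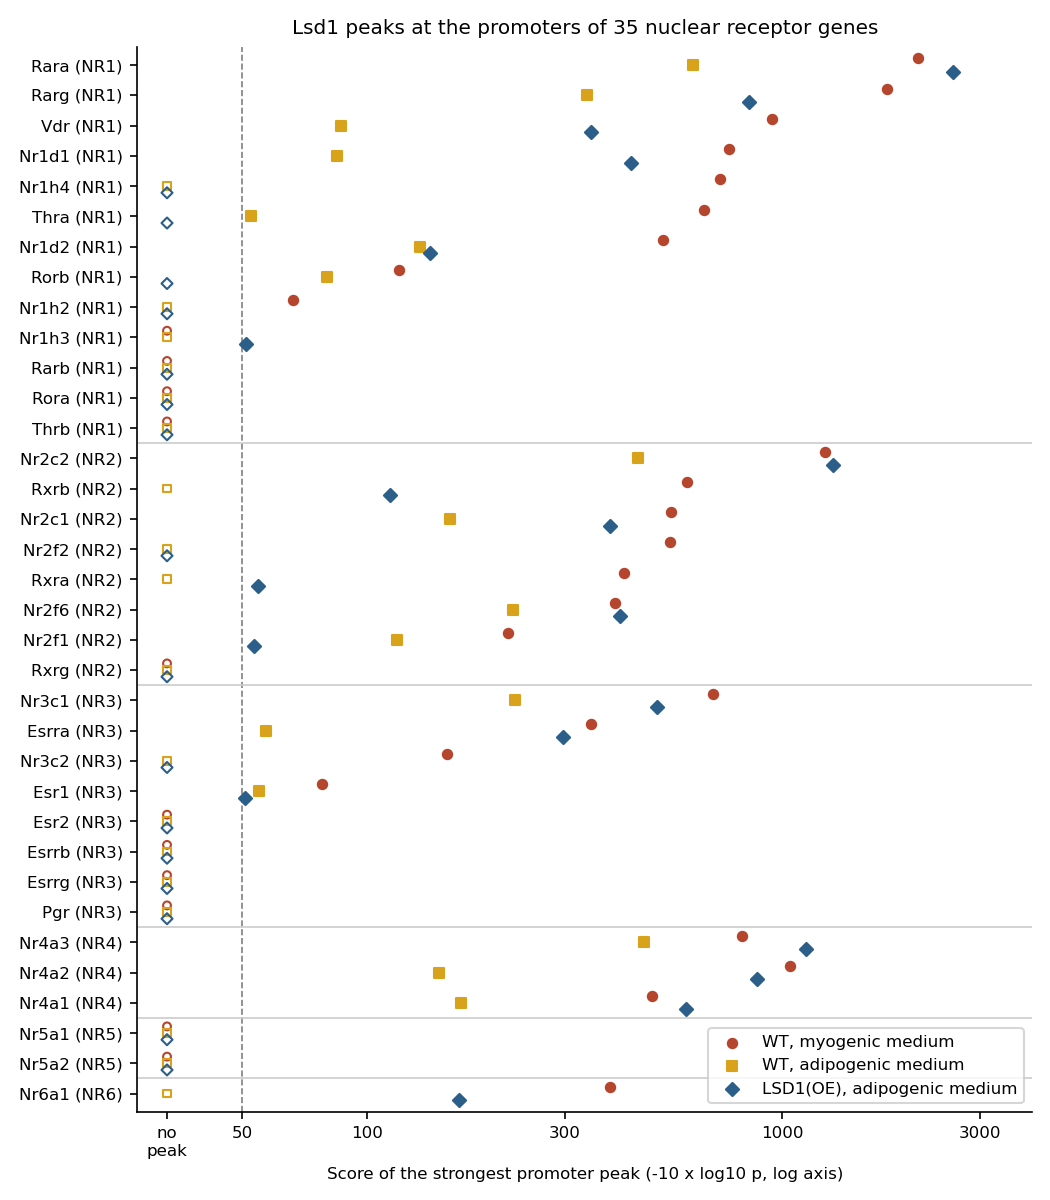
Score of the strongest promoter peak (horizontal log axis, 10 times −log10 of the p-value) of each receptor gene, grouped by subfamily, with filled symbols for the 3 libraries and open symbols at the left where no promoter peak was called. The dashed line marks 50, the cut-off of the peak caller, and WT adipogenic squares lie to the left of both other symbols for 13 of the 15 genes with a peak in all 3 libraries.

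The strength of a peak is given by its score, 10 times −log10 of the p-value that the peak caller MACS computed against the input, so that 50 is the weakest possible score. Scores grow with sequencing depth and with the scaling of the libraries, which multiplied ChIP tags by 1.90, 1.28 and 1.82 in the myogenic, adipogenic and LSD1(OE) libraries. Of the 15 receptor genes with a promoter peak in all 3 libraries, 13 had their lowest score in adipogenic medium, against 78.3% of 6156 such genes overall. The exceptions were Esr1 and Nr2f1, which were lowest in LSD1(OE) cells. The highest score was in myogenic medium for 10 genes (76.1% overall) and in LSD1(OE) cells for Rara, Nr2c2, Nr2f6, Nr4a1 and Nr4a3 (22.4% overall). With the scaling divided out, 12 of the 15 were lowest in adipogenic medium, and overall this share was 59.1%. The score of a promoter is that of its strongest peak in each library, and the strongest peaks of the 3 libraries overlapped for 11 of the 15 (91.6% of the 6156). All 11 were lowest in adipogenic medium, against 78.8% of such genes, while for Esr1, Nr1d1, Nr2f1 and Nr4a2 the scores come from different places.

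The retinoic acid receptor gene Rara carried the strongest promoter peak of the family in each library, and Rarg came next in myogenic medium. Rara, on chr11, scored 2129.9 in myogenic medium, 611 in WT adipogenic cells and 2583 in LSD1(OE) cells, which placed it at percentiles 98.8, 95.1 and 99.4 of all genes with a promoter peak in that library. The myogenic peak spanned chr11:98935784-98943210 with 563 tags, the adipogenic one chr11:98938938-98941483 with 256 tags, and the LSD1(OE) one chr11:98935767-98941624 with 595 tags. Expressed as tag density, that is tags per kb of peak and per 1000000 ChIP tags left by the duplicate filter, these peaks reached 1.64 (95% Poisson interval 1.51 to 1.78), 1.57 (1.39 to 1.78) and 1.84 (1.70 to 1.99). In adipogenic medium a second promoter peak of 300 tags, with a score of 470 and a density of 1.13 (1.00 to 1.26), lay directly upstream at chr11:98934766-98938925, under the same myogenic peak. Over the merged region the densities were 1.51, 1.30 and 1.73. The Rara window held 10 peaks in myogenic medium, 7 in WT adipogenic cells and 16 in LSD1(OE) cells, where no other receptor gene had as many. A peak upstream of the gene, about 5500 bp from the TSS in myogenic medium, scored 2033 there, with counterparts of 396 and 1435 in the other libraries.

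Rarg, on chr15, scored 1786 in myogenic medium, 339 in WT adipogenic cells and 830.45 in LSD1(OE) cells. Its myogenic peak at chr15:102256127-102259940 held 400 tags at a density of 2.27 (2.06 to 2.51), the adipogenic one 228 tags at 1.60 (1.399 to 1.82) and the LSD1(OE) one 226 tags at 1.85 (1.61 to 2.10). Densities in myogenic medium and in adipogenic medium did not overlap in their counting intervals. A second region, near its internal TSS, scored 1113 in myogenic medium, 192 in WT adipogenic cells and 605 in LSD1(OE) cells. Downstream of Rarg, at the neighbouring gene Itgb7, the order was different: this region scored 549, 588 and 1818. Chromosome 15 carried more promoter peaks than other autosomes in all libraries, at 61.2, 52.1 and 57.2% of its genes against 47.7, 27.2 and 38.0%. Rarg, Vdr and Nr4a1 are the 3 receptor genes on it, and the part of the chromosome in their peaks was not tested.

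The third retinoic acid receptor gene, Rarb, is itself a textbook target of retinoic acid signalling and had no promoter peak in any library. Its window of 671 kb held 2 peaks in myogenic medium, none in WT adipogenic cells and 13 in LSD1(OE) cells. The myogenic peaks were weak, with scores of 83.0 and 51.1, and lay in an intron. The LSD1(OE) peaks scored between 50.05 and 267, the strongest at chr14:16727530-16729589 in an intron with 130 tags, and 5 of the 13 kept a score of 50 with the scaling divided out. Among all 123 genes with a window at least as long, the median number of peaks was 1 in myogenic medium, 0 in WT adipogenic cells and 1 in LSD1(OE) cells, and 24 had more peaks in LSD1(OE) cells than in myogenic medium. Of these 123 genes, 78 had no peak in WT adipogenic cells. Among all 26180 genes, 2, Rarb included, had at least 13 peaks in LSD1(OE) cells and none in WT cells in adipogenic medium. That cut-off is Rarb's own count, so the number describes Rarb and tests nothing.

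**Figure D3:**
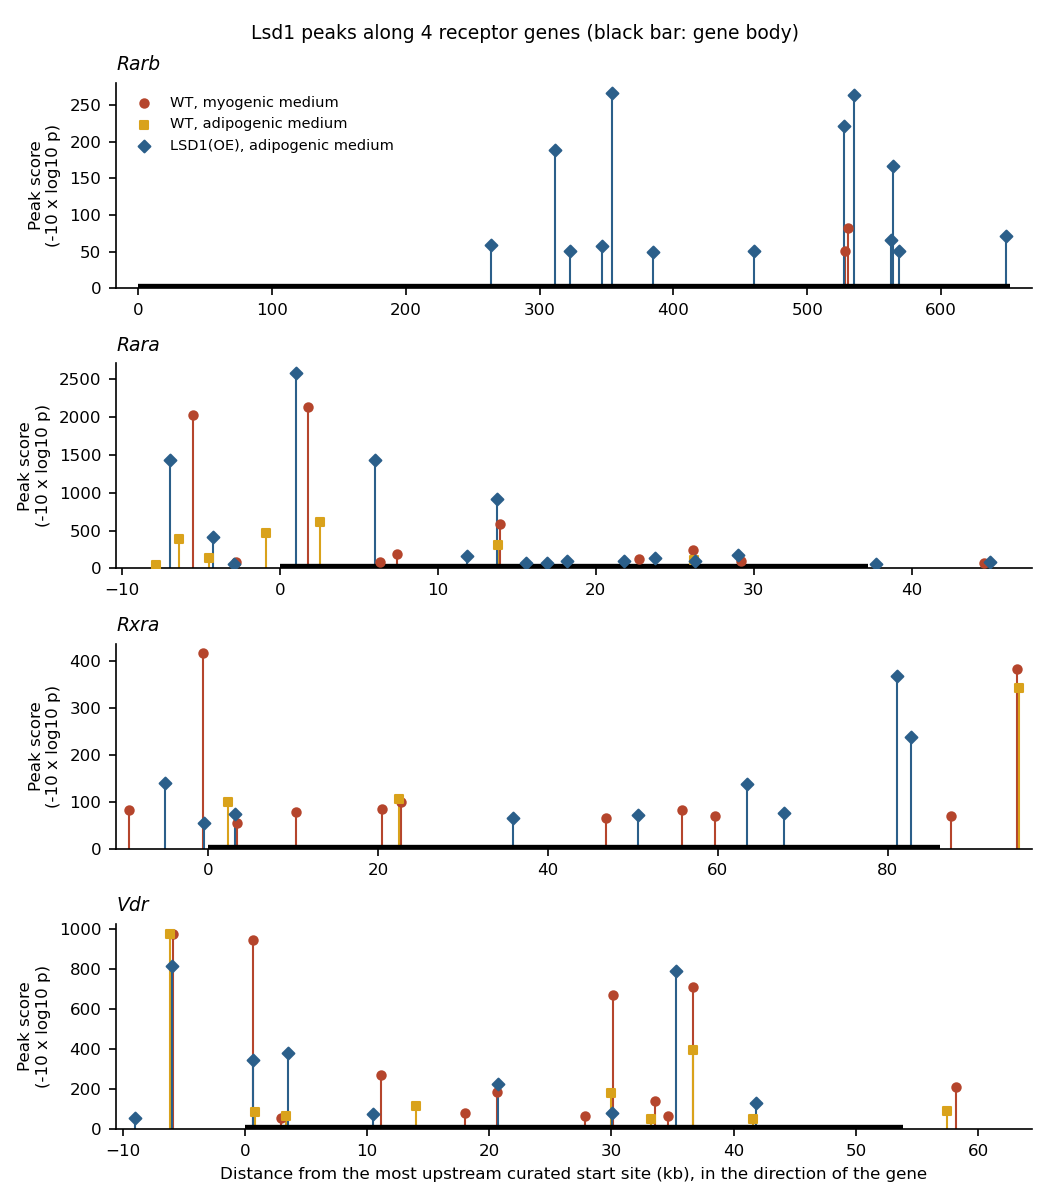
Lsd1 peaks along Rarb, Rara, Rxra and Vdr, with the distance from the most upstream curated TSS in kb (horizontal axis, in the direction of the gene) and the peak score (vertical axis) for the 3 libraries, and the gene body as a black bar. The 13 LSD1(OE) peaks of Rarb lie far from the most upstream TSS, whereas in Rara the tallest peaks of WT myogenic and LSD1(OE) cells lie near it.

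Vdr, which binds the active form of vitamin D, scored 945 at its promoter in myogenic medium, 86.5 in WT adipogenic cells and 347 in LSD1(OE) cells. Tag counts of these peaks were 236, 80 and 124. Its strongest peak was not at the promoter but upstream, 5918 bp from the TSS in myogenic medium, where the 3 libraries were close together with scores of 977, 973 and 814. Tag densities at that upstream region were 2.18 (1.89 to 2.50), 1.70 (1.54 to 1.88) and 1.77 (1.58 to 1.97). These upstream peaks held 208, 413 and 334 tags. The closeness of the upstream scores rests on the scaling of the libraries, since with it divided out they were 515, 763 and 446, highest in adipogenic medium. The promoter scores were then 498, 67.8 and 190.3, and still lowest there. Altogether the Vdr window held 12, 9 and 9 peaks.

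The thyroid hormone receptor Thra scored 648 in myogenic medium with 212 tags and 52.6 in adipogenic medium with 45 tags, just above the cut-off. LSD1(OE) cells had no promoter peak, but a peak of 478 lay 2906 bp downstream of the TSS, beyond the limit of the promoter. Peaks further inside the gene reached 221 in WT adipogenic cells and 508 in LSD1(OE) cells. Thra and Nr1d1 lie tail to tail on chr11 and their windows overlap, so that the promoter peak of Nr1d1, with a score of 744, counts in the window of Thra as well. Thrb, which is 377 kb long, had no peak in its window in any library.

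Among the RXR genes, the common partners of the family, Rxra and Rxrb differed from Rxrg. Rxra scored 417 in myogenic medium with 105 tags, had no promoter peak in adipogenic medium and scored 54.6 in LSD1(OE) cells with 40 tags. In adipogenic medium a peak of 98.9 was centred 2275 bp downstream of the TSS, just outside the promoter. The density at the Rxra promoter was 1.68 (1.37 to 2.03) in myogenic medium and 0.957 (0.68 to 1.30) in LSD1(OE) cells, intervals that do not overlap. The window of Rxra held 11, 3 and 9 peaks, and 2 peaks near the end of the gene, with scores of 368 and 239, were called in LSD1(OE) cells alone. Rxrb scored 589.65 in myogenic medium and 113 in LSD1(OE) cells without a peak in adipogenic medium. The TSS of Slc39a7 lies within 2000 bp of the same peaks. In LSD1(OE) cells it was the nearer one, at 33 bp from the centre against 155 bp for Rxrb. With peaks counted for the nearest TSS only, Rxrb had a promoter peak in myogenic medium alone. Rxrg had no peak within its window in any library.

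The glucocorticoid receptor Nr3c1, whose ligand dexamethasone is part of the adipogenic medium, had promoter peaks in every library with scores of 681, 228 and 499. These peaks held 161, 112 and 167 tags, at densities of 1.77 (1.51 to 2.07), 1.404 (1.16 to 1.69) and 1.45 (1.24 to 1.69). A second promoter peak lay next to it in each library, with scores of 535, 111 and 212. Nr3c1 was therefore occupied in all conditions, with the highest score in myogenic medium. The mineralocorticoid receptor Nr3c2 had a promoter peak in myogenic medium alone, with a score of 156, centred 1663 bp upstream of its TSS and nearer to that of Gm10649.

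Of the other members of the steroid receptor subfamily, Esrra and Esr1 had promoter peaks. Esrra, an orphan receptor known from mitochondrial gene control, scored 346, 57.2 and 297, at percentiles 53.4, 6.03 and 64.6 of the genes with a promoter peak. Esr1, the oestrogen receptor α gene, scored 77.85, 55.0 and 50.9, close to the cut-off in all libraries, although an intronic peak reached 253 in myogenic medium, 9326 bp from a TSS, and 258 in LSD1(OE) cells. Esr2 and the progesterone receptor Pgr had no peak in their windows. Esrrb had 1 intronic peak of 165 in myogenic medium, and Esrrg had 1 weak intronic peak in each library, with scores of 55.9, 68.6 and 54.5 at 3 different places.

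All 3 Nr4a genes, immediate early genes that many stimuli induce quickly, had promoter peaks in all libraries. Nr4a3 scored 799 in myogenic medium, 464 in WT adipogenic cells and 1145 in LSD1(OE) cells, with 223, 248 and 266 tags. Nr4a1 scored 487, 168 and 588, with 162, 172 and 147 tags. Nr4a2 scored 1044, 149 and 872, with 272, 99 and 252 tags, but the adipogenic value comes from another TSS of the gene. At that TSS, with the adipogenic peak at chr2:57123161-57124607, the scores were 311, 149 and 115, so that LSD1(OE) cells were lowest there. At the place of the highest scores, with the myogenic peak at chr2:57113895-57117427, adipogenic medium had 2 smaller peaks of 109 and 98.7. For Nr4a3 and Nr4a1 the score was thus highest in LSD1(OE) cells, and for Nr4a2 in myogenic medium. The density at Nr4a3 was 1.70 (1.48 to 1.94), 1.36 (1.19 to 1.54) and 1.86 (1.64 to 2.10), so that the intervals of the WT adipogenic and LSD1(OE) libraries do not overlap. A neighbouring upstream peak, just outside the promoter of Nr4a3 at 2001 bp in adipogenic medium, scored 773, 263 and 344.

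Of the receptors of the circadian clock, the repressors Nr1d1 and Nr1d2 had promoter peaks in all libraries and the activators Rora and Rorb did not. Nr1d1 scored 744 in myogenic medium, 84.8 in WT adipogenic cells and 433 in LSD1(OE) cells, with 196, 80 and 202 tags. Nr1d2 scored 516, 134 and 142, with 138, 81 and 63 tags. Directly beside it in LSD1(OE) cells lay a second promoter peak of 94.4 with 49 tags, under the same myogenic peak. By the score of the strongest peak the 2 genes thus differed in LSD1(OE) cells, where Nr1d1 was well above its adipogenic score and Nr1d2 was close to it. At Nr1d1 the LSD1(OE) peak lay inside the gene, 1861 bp from the TSS, and the peak over the TSS scored 323. An overlapping adipogenic peak of 91.3 inside the gene was centred 2442 bp from the TSS, outside the promoter. Densities in WT adipogenic and LSD1(OE) cells were 1.09 and 1.56 over this merged region. Over the TSS region they were 1.24 and 1.22 at Nr1d1, and 1.23 and 1.16 at Nr1d2. These densities depend on the length of the called peaks, 1.01 and 2.56 kb at Nr1d1 and 1.03 and 1.74 kb at Nr1d2. In tags, LSD1(OE) cells were higher at both regions, with 80 and 172 at Nr1d1 and 81 and 112 at Nr1d2. Rorb scored 119.6 and 80.35 in myogenic and adipogenic medium and had no promoter peak in LSD1(OE) cells. Rora, the longest of the receptor genes at 734 kb, had no promoter peak. Its window held 2 peaks in myogenic medium, of which the stronger, at 133, lay at the neighbouring gene Ice2, and 4 in LSD1(OE) cells, the strongest with a score of 124 in an intron.

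The oxysterol receptors and the bile acid receptor each had promoter peaks in 1 library, although the windows of Nr1h3 and Nr1h4 held peaks in all 3. Nr1h2, the LXRβ gene, scored 66.3 in myogenic medium, and its window held no peak in the other libraries. Nr1h3 scored 51.2 in LSD1(OE) cells with 58 tags, 33 bp downstream of its TSS, just above the cut-off, and its window also held peaks at the neighbouring gene Madd with scores up to 280.27 in myogenic medium and 313 in LSD1(OE) cells. Nr1h4, the bile acid receptor FXR, scored 709 in myogenic medium with 138 tags at chr10:89531011-89532459, and this peak was centred 1887 bp from a TSS, just inside the limit. Overlapping peaks of 204 in WT adipogenic cells and 280.42 in LSD1(OE) cells were centred 2260 and 2225 bp from it, just outside. The promoter call of Nr1h4 thus turned on a shift of the centre at this place, but myogenic medium had 2 further promoter peaks, of 103 and 51.98, without a counterpart. The densities at the strongest peak were 2.06 (1.73 to 2.44), 1.28 (1.06 to 1.53) and 1.39 (1.13 to 1.69), and the myogenic interval lies above both others.

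Of the orphan receptors of the NR2 subfamily, Nr2c1, Nr2c2, Nr2f1 and Nr2f6 had promoter peaks in all libraries and Nr2f2 in 1. Nr2c2 scored 1267, 449 and 1324, with 228, 273 and 274 tags in a peak over its first exon. Nr2c1 scored 541, 159 and 385, and Nr2f6 scored 396, 225 and 408. Nr2f6 was the 1 receptor promoter whose density was no lower in adipogenic than in myogenic medium, at 1.24 and 1.22 over the merged region. This depends on the length of the called peaks there, 1.78 and 3.13 kb. Without division by length, all 24 promoter regions called in both WT libraries, that of Nr2f6 included, were lower in adipogenic medium. Nr2f1 scored 218 and 118 at overlapping promoter peaks of the WT libraries and 53.3 in LSD1(OE) cells at another place, chr13:78197006-78197606, where WT cells had no peak. This LSD1(OE) peak was nearer to the TSS of A830082K12Rik, at 711 bp against 857 bp, and did not count for Nr2f1 with the nearest TSS only. A peak 4743 bp upstream of Nr2f1 in myogenic medium, called in all libraries, reached 658, 272 and 265. Nr2f2, which is important for the fate of mesenchymal cells, scored 536 in myogenic medium and had no peak in its window in either library of adipogenic medium. That pattern of Nr2f2 was the same under all alternative settings of the promoter rule.

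The last subfamilies were small. Nr6a1, a germ cell receptor, scored 386 in myogenic medium and 166 in LSD1(OE) cells, and an upstream peak, 7824 bp from the TSS in myogenic medium, reached 431, 191 and 682. Nr5a1, the steroidogenic factor, had no peak in its window in WT cells and 3 in LSD1(OE) cells, the strongest of 153 downstream of the gene and 1 of them also within the window of Nr6a1. Nr5a2 had 1 intronic peak of 114 in myogenic medium. By subfamily, promoter peaks in myogenic medium, adipogenic medium and LSD1(OE) cells were found in 9, 7 and 6 of 13 genes of NR1, in 7, 4 and 6 of 8 of NR2 and in 4, 3 and 3 of 8 of NR3. For NR4 they were found in 3 of 3 genes in each library and for NR5 in none of 2. NR6, which is Nr6a1 alone, had one in myogenic medium and in LSD1(OE) cells. All genes stood at 46.8, 27.0 and 37.3%, and these subfamilies are too small for their shares to be compared closely with that.

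Taken as regions, the peaks of the 3 libraries near receptor genes merged into 175 places, of which 41 were called in all libraries (23.4% against 20.6% of 56729 regions overall). Another 51 were called in myogenic medium only (29.1 against 35.9%) and 46 in LSD1(OE) cells only (26.3 against 20.8%). WT cells in adipogenic medium had 2 regions of their own (1.14 against 3.70%), and 1 was shared by both libraries of adipogenic medium (0.57 against 2.45%). Myogenic medium and LSD1(OE) cells shared 22, about the share of all regions (12.6 against 12.2%), and the WT libraries shared 12 (6.86 against 4.38%). Of the 46 places found in LSD1(OE) cells alone, Rarb held 12. No receptor gene had more window peaks in adipogenic than in myogenic medium (all genes 2.80%), and 7 had more in LSD1(OE) cells than in myogenic medium (all genes 12.5%), namely Nr1d1, Nr1d2, Nr1h3, Nr5a1, Rara, Rarb and Rora.

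Where a region near a receptor gene was called in 2 libraries, tag densities were compared. The median log2 ratio of adipogenic over myogenic medium was −0.35 over 53 regions, of which 46 were lower in adipogenic medium, and over all 14149 regions it was −0.32. LSD1(OE) over WT cells in adipogenic medium gave 0.15 over 42 regions, against 0.13 overall. LSD1(OE) cells over WT myogenic medium gave −0.12 over 63 regions, against −0.19 overall. At promoter regions alone the medians were −0.41, 0.20 and −0.30, against −0.44, 0.15 and −0.28. By density the receptor genes thus moved by about as much as the rest of the genome. Without division by length the promoter medians were −0.82, 0.47 and −0.40, against −0.71, 0.28 and −0.46 for all promoter regions. By density, the lowest promoter ratios of LSD1(OE) over myogenic medium were those of Rxrb and Rxra, at −0.83 and −0.81. The highest, at 0.35, was an internal promoter of Rara.

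**Figure D4:**
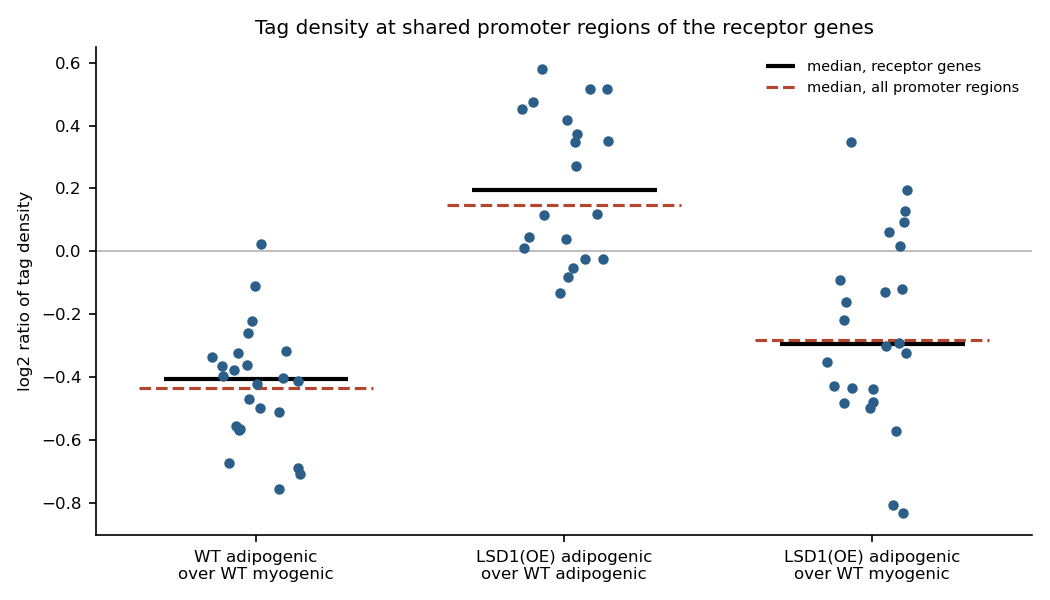
Log2 ratio of tag density (vertical axis) at promoter regions of receptor genes that were called in both libraries of a pair, 1 point per region, with the median of the receptor genes as a black line and that of all promoter regions as a dashed line. The lines lie close together in all 3 comparisons, at −0.41 and −0.44, 0.20 and 0.15, and −0.30 and −0.28.

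Promoter peaks of receptor genes lay further from the TSS than those of genes at large. Their median distance was 511 bp in myogenic medium, 499 bp in WT adipogenic cells and 482 bp in LSD1(OE) cells, against 228, 236 and 261 bp. Within 500 bp of the TSS lay 18 of 37, 13 of 25 and 16 of 31 of them, against 71.3, 72.8 and 69.1% overall.

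The CpG ratio, the observed over the expected number of CpGs within 500 bp of a TSS, separates CpG-rich from CpG-poor promoters. For each gene the TSS with the highest ratio was taken. Of all 26180 genes, 11853 had a ratio of at least 0.6, and 83.0% of these had a promoter peak in at least 1 library. Among those below, the share was 23.3%. Of the receptor genes, 26 had a ratio of at least 0.6 and 20 of them (76.9%) had a promoter peak. Of the 9 CpG-poor receptor genes 5 (55.6%) had one, namely Nr1h4, Nr1h3, Nr1d1, Esr1 and Nr3c2. The 10 receptor genes with no promoter peak had a median ratio of 0.71, with 6 of them at or above 0.6, whereas all genes without a peak had a median of 0.25. Rora, Rarb, Thrb, Nr5a1, Esrrb and Esrrg were thus CpG-rich without a promoter peak. Of these 6, Nr5a1 was 21.9 kb long and the others were at least 160.5 kb. The 10 receptor genes without a promoter peak had a median length of 139 kb, against 35.1 kb for the 25 with one. Over all genes the order was the other way, at 8.10 kb without a promoter peak and 19.4 kb with one. The part of gene length was not tested.

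**Figure D5:**
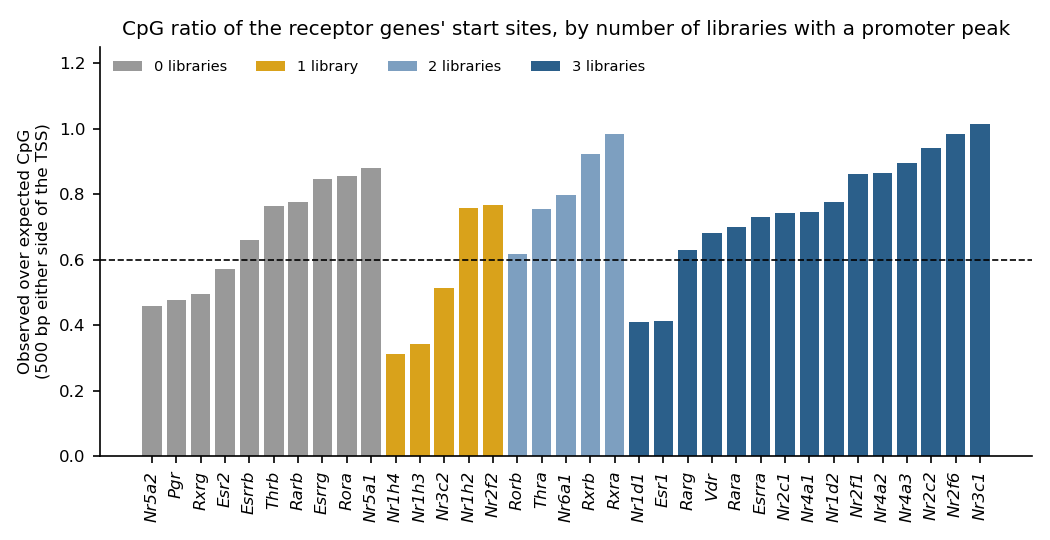
Observed over expected CpG within 500 bp of the TSS (vertical axis) for each receptor gene, coloured by the number of libraries with a promoter peak, with a dashed line at 0.6. Among the 10 genes with no promoter peak (grey) 6 reach the line, and among the 15 with a peak in all libraries (dark blue) Nr1d1 and Esr1 lie below it.

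At the summits of the strongest promoter peaks, the motifs were counted in 300 bp on both strands. The core site AGGTCA was found at 2 of 24 receptor genes in myogenic medium (8.33%, against 11.6% of all genes with a promoter peak), at 3 of 17 in adipogenic medium (17.6 against 12.3%) and at 6 of 19 in LSD1(OE) cells (31.6 against 11.6%). Those 6 genes were Esrra, Nr1d2, Nr2c1, Nr2f6, Nr4a2 and Nr4a3. At Nr1d2 the summit window held the core site in all libraries. The E-box CAGCTG was found at 5 of 24, 1 of 17 and 1 of 19 receptor genes, against 18.0, 19.7 and 19.0% overall. Exact repeats of AGGTCA in the same direction with 1 to 5 bases between them, and the steroid palindrome AGAACA and TGTTCT spaced by 3 bases, were found at no receptor gene, and each of these 6 motifs at no more than 4 promoter peaks of any library.

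Genes that work with the receptors were examined as fixed lists. Of 18 coregulator genes, 16, 11 and 14 had a promoter peak in myogenic medium, adipogenic medium and LSD1(OE) cells, where all genes stood at 46.8, 27.0 and 37.3%. The strongest were the acetyltransferase Ep300 with scores of 1400.4, 52.6 and 394, the coactivator Ncoa2 with 1174, 183 and 459, and the corepressor Nrip1 with 1045, 301 and 442. Of 20 genes that make, carry or break down ligands, 8, 5 and 8 had one, which is close to or below the shares of all genes. The strongest were Rdh10, a retinol dehydrogenase, with 899, 150.4 and 211, Crabp2, a carrier of retinoic acid, with 202, 165 and 560.02, and Dhrs3, a retinal reductase, with 423, 118 and 481. Of 21 genes known as targets of the receptors, 13, 11 and 14 had a promoter peak, led by Nfil3 with 1536, 854 and 1378, Per1 with 624, 177 and 1226, and Klf9 with 751, 577 and 1182. Dhrs3, Cyp26b1 and Cyp24a1 stand in both the ligand and the target list, and Rarb is both a target and a receptor gene.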

How the data were processed

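Lsd1 ChIP-seq and input libraries of C2C12 cells, 1 of each per condition, were grouped by their sample labels. Single reads were aligned to mm10 by the authors, who ran MACS on each ChIP with its own input. The file headers give MACS 1.4.2, and the processing notes name MACS 1.41 and Bowtie2 where the methods name Bowtie. The deposited peak lists hold a count of ChIP tags per peak without normalization, the score defined in the report (from −log10 of p), computed after the smaller library had been scaled up, the caller's fold enrichment, and an FDR in percent. The deposited fold enrichment is not on 1 scale between libraries and was not compared. ChIP libraries held 46155625, 63915769 and 55193310 tags after the duplicate filter in myogenic medium, adipogenic medium and LSD1(OE) cells, with 43426, 18893 and 33533 peaks, and the weakest peaks held 27, 35 and 30 tags, which sets what could be detected.

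Peaks were assigned to 31647 curated RefSeq TSSs. A peak counts for every gene within reach. Densities have exact Poisson intervals (95%) for counting error only. All receptor genes are accounted for. Genes were chosen for closer description by rule: the 6 highest scores of each library, genes with a promoter peak in adipogenic but not myogenic medium, receptors of agents in the medium and their partners, clock and Nr4a receptors, the strongest peak of genes without a promoter peak, and the 3 highest scores of each other list. Their scores were given, and for many of them also tags, densities or positions. The receptor genes and the lists were chosen with earlier results of these data known. The steps were tested on simulated data in Python 3.11.15 with pandas 2.3.3.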

Additional observations from a re-analysis of the deposited data

How the results depend on the processing

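No paired analysis was possible because each condition has 1 library and no result comes from a test, and no replicate could be left out. Of 93 values under other settings, 82 stayed close to the main value, that is within 1.5 times for a count and within 0.1 for a log2 ratio. An FDR limit of 0.1% left 11 receptor genes with a promoter peak in adipogenic medium (16.2% of all genes) and 7 in myogenic medium only (13.9%). A score of at least 100 left 11 in adipogenic medium (18.2%) and 5 in myogenic medium and LSD1(OE) cells without adipogenic medium (10.7%). With predicted transcripts included the latter number was 6 (10.9%) and that in myogenic medium only was 2 (10.0%), and with a promoter of 5000 bp they were 1 (11.6%) and 2 (10.4%). The alternatives themselves keep fewer peaks, add start sites or widen the window. Without division by length the median log2 ratio was −0.50 for adipogenic over myogenic medium, against −0.50 for all regions. For LSD1(OE) over adipogenic medium it was 0.31, against 0.24. At promoter peaks alone the ratio of LSD1(OE) over myogenic medium was −0.30, against −0.28 for all promoter regions. The cause of these 3 shifts was not tested. The patterns of 18 receptor genes were the same under all 10 other settings of the promoter rule. Those of Nr1h4, Rxra and Thra turned to a peak in all libraries with any overlap of peak and promoter, and Nr1h2, Nr1h3 and Esr1 had no promoter peak left at a score of at least 100.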
